A study of Mus musculus with 6 samples.

Results

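The 84 genes described here encode the proteins of the cytosolic ribosome and their paralogs, among 19330 genes measured by RNA sequencing in 6 mouse libraries. Members were taken by symbol, as every Rpl or Rps number with at most 1 suffix letter (a, x, y or l) and 1 further digit, the acidic stalk proteins Rplp0 to Rplp2, and Rpsa, with the Rps6 kinases left out. They comprise 46 core genes of the large (60S) subunit, 31 core genes of the small (40S) subunit and 7 paralogs whose symbol carries an added l, namely Rpl3l, Rpl7l1, Rpl10l, Rpl22l1, Rpl39l, Rps4l and Rps27l. The rule leaves out symbols with 2 suffix letters, such as the protein-coding paralog Rpl36al. The libraries came from induced pluripotent stem cells (iPSC), with 2 lines labelled palmitoylcarnitine (PC iPSC 5 and 13) and 2 labelled control (control iPSC 3 and 7), from 1 library of embryonic stem cells (ESC), titled B6 with the source name B6/blu, and from 1 of mouse embryonic fibroblasts (MEF). Palmitoylcarnitine is the carnitine ester of palmitate, the form in which this fatty acid is passed into mitochondria. All iPSC and ESC were kept on MEF feeder cells treated with mitomycin C, in medium with leukemia inhibitory factor, and MEF were kept in serum medium. How palmitoylcarnitine was given, how the cells were reprogrammed and which strain the label B6/blu names are not stated in the sources used here. No label says that the lines came from separate animals or cultures, and every p-value below covers the spread between the samples at hand alone, which may be technical.

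A cytosolic ribosome holds 1 copy of most ribosomal proteins, and cells balance their synthesis mainly through translation and through the breakdown of unassembled protein. The mRNAs of these proteins begin with a run of pyrimidines, the terminal oligopyrimidine tract, through which mTOR signalling and the RNA-binding protein Larp1 set their translation. Ribosome supply is high in growing and dividing cells, and free ribosomal proteins of the large subunit can bind Mdm2 and so link ribosome assembly to p53. Several mammalian ribosomal proteins have paralogs used in certain tissues, such as Rpl10l and Rpl39l in testis and Rpl3l in striated muscle.

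Libraries held 26.51 M to 27.99 M assigned reads, and all 84 members passed the filter on low counts. The pluripotency genes Pou5f1, Nanog, Sox2, Esrrb and Zfp42 summed to 1282 and 1343 RPKM in the PC lines and 1400 and 1306 RPKM in the control lines. They summed to 1360 RPKM in ESC and 245.9 RPKM in MEF, where Esrrb and Zfp42 had no read. The MEF sum was held by Pou5f1 (157.7 RPKM) and Sox2 (88.2 RPKM), with Nanog at 0.0482 RPKM. Why Pou5f1 and Sox2 were found in the MEF library was not tested. RPKM is a read count divided by the gene's length and the reads assigned in its library. Fibroblast genes were found in every library, and their summed level was 957.9 to 1630 RPKM in the iPSC lines, 592.9 RPKM in ESC and 5310 RPKM in MEF, with 8 of 8 above 0 in each. Macrophage genes summed to 12.2 to 18.2 RPKM in the iPSC lines, 67.3 RPKM in ESC and 544.9 RPKM in MEF, and Ptprc was at 0 in PC iPSC 5 and control iPSC 7. The part of feeder or other cells in the values below was not tested, and in bulk RNA fewer cells of a type and less RNA per cell cannot be told apart.

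Ribosomal protein genes took up a large part of the mRNA of the pluripotent lines. Members held 8.25% and 9.49% of assigned reads in PC iPSC 5 and 13, 9.05% and 9.41% in control iPSC 3 and 7, 9.88% in ESC and 3.32% in MEF. The 95% exact binomial intervals, which cover counting error only, were narrow, such as 8.24% to 8.26% in PC iPSC 5, 9.04% to 9.06% in control iPSC 3, 9.87% to 9.90% in ESC and 3.32% to 3.33% in MEF. Per length, as a share of summed RPKM, members held 23.2% ± 1.16 in the iPSC lines (SD, n = 4), 24.7% in ESC and 11.1% in MEF. The MEF library was thus the only one that stood far below the others, and PC iPSC 5 was the lowest of the pluripotent libraries. The 7 paralogs held 0.0842% ± 0.00644 of reads in the iPSC lines, 0.0624% in ESC and 0.0226% in MEF.

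Core genes were not equally abundant. The most abundant by mean RPKM over the 6 libraries were Rps2, a small subunit protein near the mRNA entry channel, Rplp0, the base of the acidic stalk that recruits elongation factors, and Rpl12, which sits beside that stalk. Rps2 (chromosome 17, 24718121 to 24721927; all positions from RefSeq GRCm38.p6) stood at 3167 and 3579 RPKM in the PC lines, 3489 and 3612 RPKM in the control lines, 3817 RPKM in ESC and 981.2 RPKM in MEF. Rplp0 (chromosome 5, 115559467 to 115563729) stood at 2600 and 3387 RPKM in the PC lines, 3401 and 3407 RPKM in the control lines, 3028 RPKM in ESC and 1354 RPKM in MEF. The level of PC iPSC 5 lay apart from the other three iPSC lines, which were close together. Rpsa, the laminin receptor homolog of the small subunit (chromosome 9, 120127766 to 120132369), stood at 1528 and 1975 RPKM in the PC lines, 1719 and 1832 RPKM in the control lines, 2110 RPKM in ESC and 520.2 RPKM in MEF. Here too PC iPSC 5 was the lowest pluripotent library.

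The least abundant core genes were Rps27, Rps15a and Rpl22, proteins of the small subunit, the small subunit and the large subunit. Rps15a stood at 120.2 to 147.2 RPKM in the 4 iPSC lines, 144.5 RPKM in ESC and 60.5 RPKM in MEF, with a length of 5158 bases in the table, against a median of 708 bases for core genes. Rpl22, which also binds RNA outside the ribosome, stood at 197.6 to 217.4 RPKM in the iPSC lines, 236.7 RPKM in ESC and 100.6 RPKM in MEF. Rps27 was listed at only 4.96 to 8.48 RPKM in the iPSC lines, 10.3 RPKM in ESC and 3.40 RPKM in MEF. Of the stretches of 50 bases in its GENCODE transcripts, 46.2% also occur in the transcripts of Rps27rt, so its level as counted is uncertain. Such sharing with other genes was common, with a median of 38.5% of stretches over the core genes (0% to 95.1%). Unique assignment of reads can understate the level of such genes. Across the 77 core genes shared stretches and mean RPKM had a Spearman correlation of 0.24, given as a description over genes that share libraries.

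**Figure D1:**
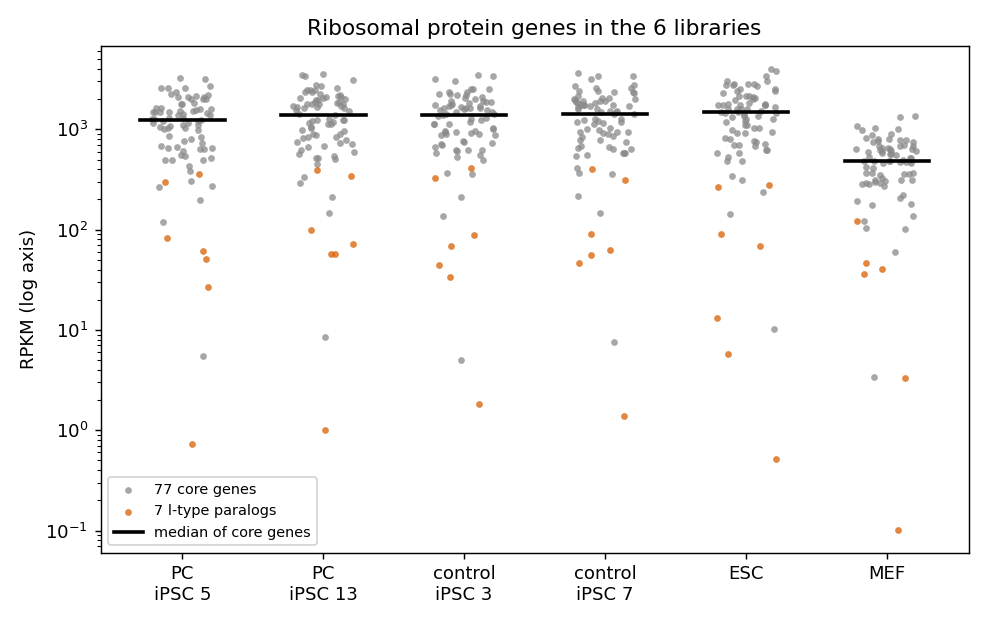
RPKM on a log axis for every member in the 6 libraries, with the 77 core genes in grey, the 7 paralogs in orange and a black bar at the core median. The core median lies at 1247 to 1479 RPKM in the 5 pluripotent libraries and at 488.3 RPKM in MEF, and Rpl10l, which had no read in MEF, is not drawn there.

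Median levels of the 2 subunits kept a like proportion. The median RPKM of 60S core genes over that of 40S core genes was 0.847 and 0.765 in the PC lines, 0.846 and 0.802 in the control lines, 0.856 in ESC and 0.931 in MEF. Across the 4 iPSC lines a core gene varied by a median coefficient of variation of 8.85%, from 3.01% to 24.9%. The order of core genes was also close between pluripotent libraries, with Pearson correlations of log2 RPKM from 0.981 to 0.998 over the 77 genes, and from 0.953 to 0.968 against MEF. These correlations are descriptions over genes that share each library, with no test.

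Most paralogs stood far below the gene they are named after. Rpl22l1 reached 29.1% ± 3.06 of the RPKM of Rpl22 in the iPSC lines (SD, n = 4), Rps4l 16.96% ± 1.29 of that of the X-linked Rps4x, and Rpl39l 10.1% ± 1.99 of that of Rpl39. Rpl7l1, which acts in nucleolar ribosome assembly, reached 5.18% ± 0.256 of Rpl7, Rpl10l 2.99% ± 1.08 of Rpl10, and the muscle gene Rpl3l 0.0641% ± 0.0254 of Rpl3. Rps27l alone lay above its counterpart as counted, at 392.9 ± 26.7 RPKM, against 6.62 ± 1.65 RPKM for Rps27. The paralog Rpl36al, outside the symbol rule, stood at 307.8 and 321.4 RPKM in the PC lines, 341.0 and 342.1 RPKM in the control lines, 282.0 RPKM in ESC and 168.2 RPKM in MEF.

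Upstream regions of the members were read from RefSeq windows of 300 bases, from 250 before to 50 after the annotated start (GRCm38.p6). Such windows existed for 63 of the 84 members, 75 windows in all, and were set beside 32851 windows of all genes. The ETS family core CCGGAAG, searched on both strands, was in 36.0% of member windows and 8.86% of all windows. The YY1 core ATGGCG was in 32.0% and 8.93%, the word TCTCGCGA in 16.0% and 0.995%, and the SP1 core GGGCGG in 45 of 75 member windows and 35.7% of all windows, all on both strands. The TATA word TATAAA was in 9.33% of member windows and 13.6% of all windows. Pyrimidine runs, CTTTC or CTCTT on the transcribed strand from 10 bases before to 20 after the start, were in 28.0% of member windows and 7.17% of all windows, and on the opposite strand in 4.0% and 7.09%. Motifs were counted separately, also where their letters overlap, and a match is a description of the letters and not a measured binding site.

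The windows below show how a core gene and 2 parent and paralog pairs differ in these words. The core gene is Rps6, the small subunit protein phosphorylated by S6 kinases, chosen as an example after its matches were seen. The pairs are those whose paralogs, Rpl39l and Rpl10l, had the highest log2 fold changes against ESC. Only Rpl39l of these passed the test. Each runs 5′ to 3′ on the gene's own strand, from 100 bases before to 50 after the start on which the RefSeq window is set. For Rpl39l that start lies inside the gene bounds given further on. Searched words are in capitals on whichever strand they match. Pyrimidine runs are the exception, in capitals only on the transcribed strand and in the stretch around the start searched above. Rps6 lies at chr4:86857318-86857467 (minus strand), Rpl39 at chrX:37085173-37085322 (minus), Rpl39l at chr16:10170128-10170277 (plus), Rpl10 at chrX:74270716-74270865 (plus) and Rpl10l at chr12:66284352-66284501 (minus).
Rps6: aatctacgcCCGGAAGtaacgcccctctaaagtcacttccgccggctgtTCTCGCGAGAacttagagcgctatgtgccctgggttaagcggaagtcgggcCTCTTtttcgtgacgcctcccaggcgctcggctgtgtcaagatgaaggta
Rpl39: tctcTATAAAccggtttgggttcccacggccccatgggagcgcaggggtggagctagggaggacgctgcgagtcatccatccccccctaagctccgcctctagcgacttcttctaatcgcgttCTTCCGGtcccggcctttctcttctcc
Rpl39l: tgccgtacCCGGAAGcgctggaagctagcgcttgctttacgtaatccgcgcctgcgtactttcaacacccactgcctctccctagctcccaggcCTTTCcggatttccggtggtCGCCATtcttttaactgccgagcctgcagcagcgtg
Rpl10: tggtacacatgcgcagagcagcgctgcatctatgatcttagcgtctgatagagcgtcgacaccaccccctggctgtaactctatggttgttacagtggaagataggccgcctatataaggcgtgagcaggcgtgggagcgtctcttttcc
Rpl10l: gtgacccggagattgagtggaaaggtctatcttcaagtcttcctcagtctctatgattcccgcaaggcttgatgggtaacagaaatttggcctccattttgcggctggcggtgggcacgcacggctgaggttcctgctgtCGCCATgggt
Rps6 shows the ETS word, a TCTCGCGA word matched on both strands and CTCTT at the start. Rpl39l shows the ETS and YY1 words and CTTTC at the start its window is set on, and its parent Rpl39 shows the ETS word after the start and a TATA word 96 bases before it. With pyrimidine runs counted only in the stretch around the start, Rpl10l holds only the YY1 word and Rpl10 none of those searched. Outside that stretch the same letters also occur in lower case. They are CTCTT in Rpl10 and both CTTTC and CTCTT in Rpl39, all after the start, and CTTTC before the start in Rpl39l.

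Between PC and control iPSC, no ribosomal protein gene passed the test. Members were slightly lower in PC iPSC, with a median log2 fold change of -0.10 against 0.00 over all 16435 genes tested. Of the 84 members 72 were below 0, as were 8185 of all genes tested. The lowest were Rpl3l, Rpl37, Rpl37a, Rpl39 and Rpl35a, and the highest Rpl10l, Rpl19, Rpl26, Rps27 and Rps27a. The edgeR quasi-likelihood test with Benjamini-Hochberg adjustment over all genes called 0 of 84 members, as it called 0.0% of all genes. At an unadjusted p under 0.05 there was 1 member (Rpl37) and 385 genes in all, and DESeq2 called 0 members with 1 at an unadjusted p under 0.05.

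Rpl37, a zinc-finger protein of the large subunit, stood at 266.3 and 290.9 RPKM in the PC lines, against 367.1 and 360.4 RPKM in the control lines. The groups did not overlap, but the difference of -0.41 on the log2 scale had an edgeR adjusted p of 0.963 (SE 0.13). Rpl37a, another zinc-finger protein of that subunit, stood at 380.2 and 512.4 RPKM in the PC lines, against 615.7 and 542.6 RPKM in the control lines (log2 fold change -0.39, SE 0.19). Rpl39, a small protein of the peptide exit tunnel, stood at 433.8 and 538.5 RPKM in the PC lines, against 615.7 and 583.7 RPKM in the control lines (-0.32, SE 0.16). Rpl35a, at 680.9 and 847.4 RPKM in the PC lines, against 935.3 and 921.7 RPKM in the control lines, differed by -0.30 (SE 0.16). In Rpl37a, Rpl39 and Rpl35a, PC iPSC 5 was the lowest line and PC iPSC 13 the second lowest. The muscle paralog Rpl3l was near its limit of detection, at 0.723 and 1.00 RPKM in the PC lines, against 1.84 and 1.38 RPKM in the control lines (-0.92, SE 0.46). Among the highest, Rpl10l overlapped between groups and differed by 0.30 (SE 0.44), and Rps27 by 0.15 (SE 0.37). Their directions rested on single lines. Without PC iPSC 13 the log2 fold change of Rpl10l was -0.64 and that of Rps27 -0.22, without PC iPSC 5 they were 0.87 and 0.46, and without control iPSC 3 that of Rps27 was -0.11. Rpl19, Rpl26 and Rps27a, which differed by 0.20, 0.17 and 0.14 with all lines, stood at 0.02, -0.01 and -0.05 without PC iPSC 5.

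On the normalised scale both PC lines lay under both control lines in 21 of 84 members, against 16.8% of all genes, and both lay over them in 0 of 84 members, against 14.6% of all genes. Members held 8.87% ± 0.880 of reads in the PC lines, against 9.23% ± 0.253 in the control lines (SD over 2 lines each), a difference of -0.363 percentage points (two-sided exact permutation test, p = 1.0, where 2 lines against 2 cannot go below 0.33). Line PC iPSC 5 decided the direction. Without it the median log2 fold change of members was 0.03 and the share was 0.259 percentage points higher in PC iPSC, and without PC iPSC 13 they were -0.25 and -0.985.

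The core genes of PC iPSC 5 divided by chromosome. Relative to the mean of the other 3 iPSC lines, 70 of 70 core genes outside chromosome 11 were lower in PC iPSC 5, with a median log2 difference of -0.27 (-0.62 to -0.02), and 7 of 7 core genes on chromosome 11 were higher, with a median of 0.26 (0.12 to 0.35). The other genes of chromosome 11 were also higher in that line, with a median of 0.42 over 1345 genes (89.4% higher). The 15006 other genes elsewhere had a median of -0.02, with 7030 higher and 7976 lower. The chromosome 11 genes are Rpl19, Rpl23, Rpl23a, Rpl26, Rpl27, Rpl38 and Rps27a, spread from 29545842 (Rps27a) to 114672333 (Rpl38). These differences are given as a description, with no p.

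Rpl19, a large subunit protein at the subunit interface, stood at 2580 and 1954 RPKM in the PC lines, against 1915 and 1974 RPKM in the control lines. Rpl26, which sits near the exit of the peptide tunnel, stood at 2369 and 1789 RPKM in the PC lines, against 1773 and 1845 RPKM in the control lines. Rps27a, made as a fusion of ubiquitin with a small subunit protein, stood at 1301 and 974.0 RPKM in the PC lines, against 1003 and 1025 RPKM in the control lines. In all 3 genes PC iPSC 5 lay alone above 3 lines that were close together, and PC iPSC 13 was within or just below the control lines. Rpl23a, a docking site for factors at the tunnel exit, stood at 3246 and 2566 RPKM in the PC lines, against 2518 and 2756 RPKM in the control lines. Rpl23 stood at 1084 and 876.1 RPKM in the PC lines, against 905.1 and 934.7 RPKM in the control lines, and Rpl27 at 1004 and 787.2 RPKM, against 870.3 and 840.3 RPKM. Rpl38, a protein of the large subunit whose loss in mouse alters the axial skeleton, differed least, at 641.6 and 523.8 RPKM in the PC lines, against 605.4 and 582.0 RPKM in the control lines.

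**Figure D2:**
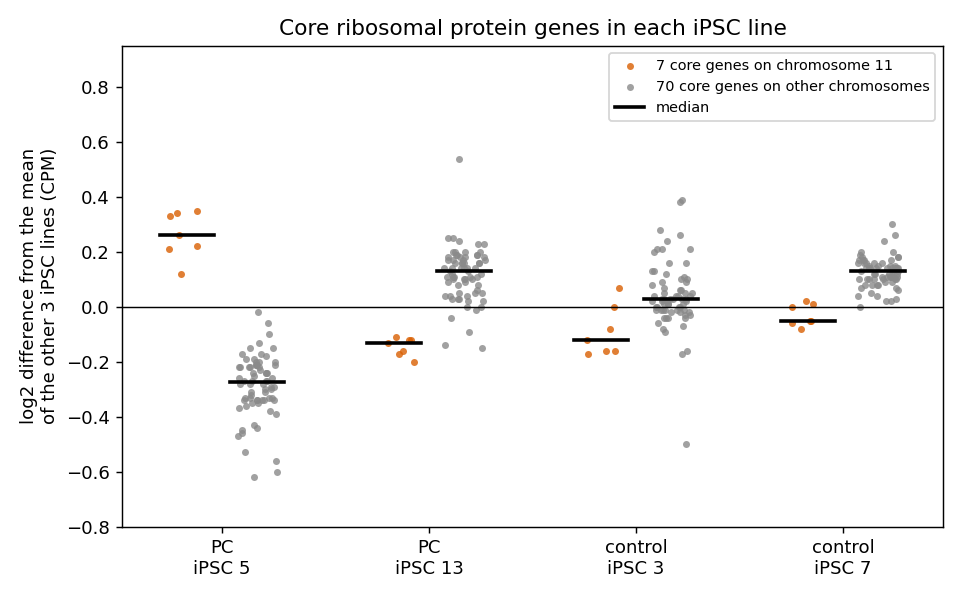
Log2 difference of each core gene (1 point) in each iPSC line from the mean of the other 3 lines, in normalised CPM (reads scaled to library size), with chromosome 11 genes in orange, the others in grey and black bars at the medians. In PC iPSC 5 all 7 orange points lie above 0 and all 70 grey points below it, while in the other lines the medians lie between -0.13 and 0.13.

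The lower level in PC iPSC 5 outside chromosome 11 was seen in both subunits, with a median of -0.27 over 40 large subunit genes and -0.30 over 30 small subunit genes. It was also seen at all lengths, with medians of -0.29 for 25 genes up to 600 bases, -0.25 for 28 genes over 600 and up to 1000 bases and -0.26 for 17 longer genes. Other genes outside chromosome 11 with a mean iPSC level of at least 50 RPKM had medians of -0.16, -0.08 and -0.14 in those length classes. Other highly expressed genes outside chromosome 11 were thus also somewhat lower at the median in that library. Its scaling factor was the highest of the 6 (1.03). As a share of assigned reads, without that factor, the 70 core genes outside chromosome 11 held 7.34% in PC iPSC 5. They held 8.76% in PC iPSC 13, and 8.32% and 8.65% in control iPSC 3 and 7. The part of the scaling factor or of the shift of other genes in the members' values was not tested. In PC iPSC 13 and control iPSC 7 the 70 core genes outside chromosome 11 had a median of 0.13 each. Of these genes 64 were higher in PC iPSC 13 and all 70 in control iPSC 7. On chromosome 11, 7 of 7 core genes were lower in PC iPSC 13 and 4 of 7 in control iPSC 7. The mean that each of these lines is set against holds PC iPSC 5, low outside chromosome 11 and high on it.

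Against ESC, the iPSC lines differed in few ribosomal protein genes, and the largest difference was in the paralog Rpl39l. It was 9.18-fold higher in iPSC, and Rpl30, a core protein of the large subunit, was lower. The edgeR test called 1 of 84 members higher (Rpl39l), where it called 4.71% of all genes higher in iPSC, and 1 of 84 lower (Rpl30), where it called 5.71% lower. Members had a median log2 fold change of -0.12 against 0.03 over all genes. Of the 84 members 67 were below 0, as were 7793 of all 16435 genes. The comparison is of 4 iPSC lines with a single ESC library, which the model takes to vary like the iPSC lines.

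Rpl39l, the paralog of the exit tunnel protein Rpl39 that is abundant in mouse testis (chromosome 16, 10170197 to 10174911), stood at 50.8 and 57.4 RPKM in the PC lines, 44.1 and 62.7 RPKM in the control lines, 5.69 RPKM in ESC and 3.28 RPKM in MEF. Every iPSC line was far above the ESC and MEF libraries (log2 fold change against ESC 3.20, SE 0.30, edgeR adjusted p = 0.00633), and the call held under 12 of 12 alternatives, from 3.02 to 3.29. Its transcripts shared no stretch of 50 bases with another gene. Its parent Rpl39 (chromosome X, 37082518 to 37085222) stood at 542.9 ± 79.3 RPKM in the iPSC lines (SD, n = 4) and 581.6 RPKM in ESC, a log2 difference of -0.15 (SE 0.18, adjusted p = 0.616). As a share of its parent's RPKM, Rpl39l was at 11.7% and 10.7% in the PC lines, 7.16% and 10.7% in the control lines, 0.979% in ESC and 1.04% in MEF.

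Rpl30, which lies near the interface of the subunits (chromosome 15, 34440505 to 34443276), stood at 272.0 and 333.5 RPKM in the PC lines, 358.6 and 370.3 RPKM in the control lines, 575.3 RPKM in ESC and 120.9 RPKM in MEF. All 4 iPSC lines were below ESC (log2 fold change -0.83, SE 0.16, edgeR adjusted p = 0.0299). The adjusted p was 0.0514 with limma on log2(RPKM + 1), and 72.8% of its 50-base stretches occur in other genes.

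The other paralogs mostly had higher values in iPSC without passing the test. Rpl10l, a retrogene of the X-linked Rpl10 that serves in male meiosis in mouse (chromosome 12, 66283379 to 66284401), stood at 26.6 and 72.2 RPKM in the PC lines, 33.5 and 46.2 RPKM in the control lines and 13.2 RPKM in ESC. All 4 iPSC lines were above ESC but spread widely among themselves (log2 fold change 1.71, SE 0.56, edgeR adjusted p = 0.101). In fits that left out 1 iPSC line the log2 fold change of Rpl10l ran from 1.25 to 1.97. With all lines its adjusted p was 0.173 with DESeq2 and 0.115 to 0.122 with limma. Against the share of its parent given above for iPSC, Rpl10l was at 0.868% of Rpl10 in ESC. Rps27l, a p53 target that also binds Mdm2, stood at 392.9 ± 26.7 RPKM in iPSC and 281.1 RPKM in ESC (0.44, SE 0.15, adjusted p = 0.114). Rpl7l1, at 90.3 ± 7.37 RPKM in iPSC and 68.8 RPKM in ESC, differed by 0.35 (SE 0.18), and Rpl3l by 1.16 (SE 0.57). Rps4l, which RefSeq lists as a transcribed pseudogene, stood at 319.6 ± 17.5 RPKM in iPSC and 267.7 RPKM in ESC (0.22, SE 0.16). Rpl22l1 was the exception, at 60.9 ± 5.81 RPKM in iPSC and 89.5 RPKM in ESC (-0.60, SE 0.17, adjusted p = 0.0679). As a share of Rpl22, Rpl22l1 stood at 29.1% ± 3.06 in iPSC, 37.8% in ESC and 36.1% in MEF. Rpl22 itself stood at 209.8 ± 8.56 RPKM in iPSC and 236.7 RPKM in ESC. Rpl22 represses Rpl22l1 in mouse cells, and any part of that in these values was not tested.

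**Figure D3:**
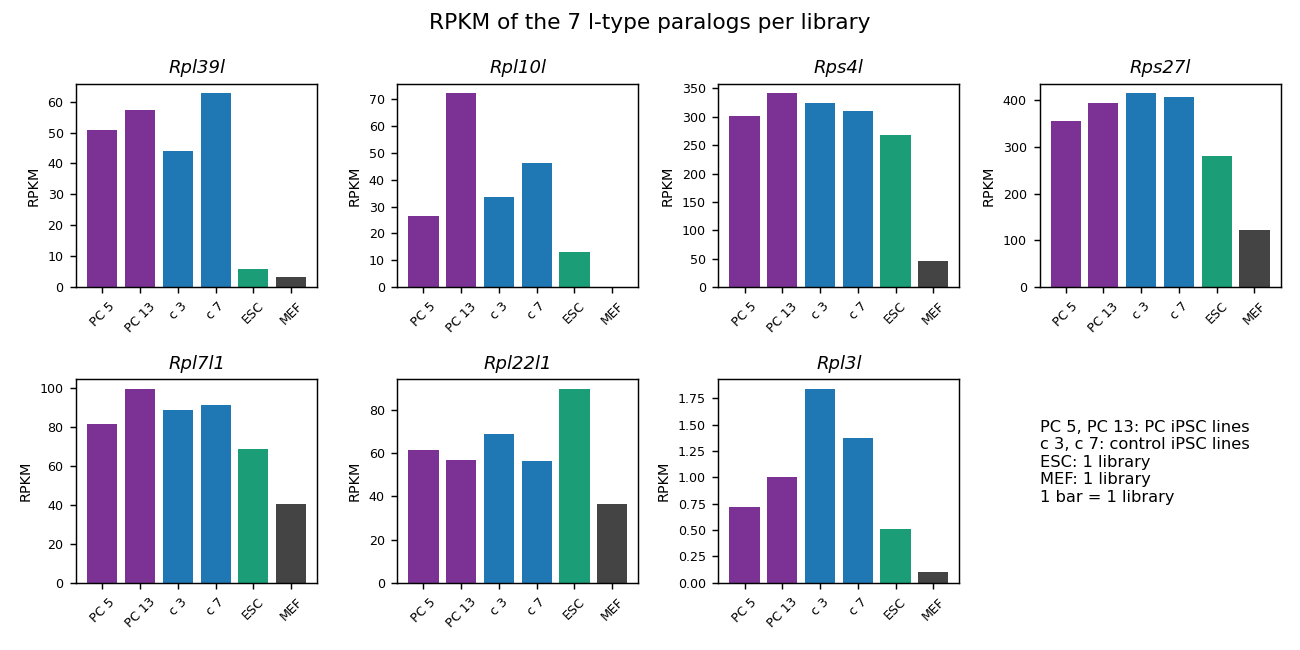
RPKM of the 7 paralogs, 1 bar per library, with PC iPSC in purple, control iPSC in blue, ESC in green and MEF in dark grey, each panel with its own axis from 0. Rpl39l stands at 44.1 to 62.7 RPKM in the 4 iPSC lines and at 5.69 RPKM in ESC, and Rpl10l is empty in MEF.

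Core genes on chromosome 11 were near the lower end of the ESC comparison, after Rpl30 and Rps27. All 7 had lower values in iPSC, with a median log2 fold change of -0.52 (-0.66 to -0.41), against -0.12 for the 70 core genes elsewhere. Rps27a, at 1076 ± 151.6 RPKM in iPSC and 1653 RPKM in ESC, was the lowest of the 7 (-0.66, SE 0.18, edgeR adjusted p = 0.0627), followed by Rpl26, at 1944 ± 285.0 RPKM in iPSC and 2814 RPKM in ESC (-0.58, SE 0.18, adjusted p = 0.0889). The edgeR test called 0 of the 7. All 7 had an unadjusted p under 0.05, as did 4899 of all 16435 genes, 2436 of them lower in iPSC. DESeq2 called 4 lower (Rpl23, Rpl23a, Rpl26 and Rps27a), where it called 1051 of all 16435 genes lower. The other genes of chromosome 11 were likewise higher in the ESC library than in the mean of the iPSC lines, with a median log2 difference of 0.31 over 1345 genes (70.9% higher). Without PC iPSC 5, in which genes of chromosome 11 were high, the log2 fold changes of the 7 core genes ran from -0.78 (Rps27a) to -0.49 (Rpl38). The low-count gene Rps27 differed by -0.68 (SE 0.39), with an adjusted p of 0.294.

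Against MEF, nearly all ribosomal protein genes were higher in iPSC, by a factor of about 2.71 at the median. The edgeR test called 83 of 84 members higher, where it called 36.5% of all genes higher in iPSC, and called 0 of 84 lower, where it called 31.6% lower. The median log2 fold change of members was 1.44, also with Rpl10l at its bound, against 0.16 over all genes. The member that did not pass was Rps27 (0.98, SE 0.45, adjusted p = 0.0922). The single MEF library differs from the iPSC lines in medium and feeder cells as well as in cell type, and these cannot be told apart.

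The 76 core genes that passed rose by 0.56 (Rpl10) to 2.05 (Rpl12) on the log2 scale. Rpl12 (chromosome 2, 32961712 to 32964045) stood at 2731 and 3513 RPKM in the PC lines, 3011 and 3400 RPKM in the control lines and 776.9 RPKM in MEF (SE 0.25, edgeR adjusted p = 0.000389). The other end was held by Rpl10, which completes the large subunit late in its maturation (chromosome X, 74270816 to 74273135), at 1294 and 1617 RPKM in the PC lines, 1425 and 1486 RPKM in the control lines and 1005 RPKM in MEF. Its adjusted p was 0.0425 (SE 0.20), and the call was lost under 4 of 12 alternatives (up to 0.0793), and 73.7% of its 50-base stretches occur in other genes. Rps9, a small subunit protein of the decoding site region, rose by 0.70 (SE 0.17, adjusted p = 0.0083), Rpl39 by 0.80 (SE 0.19) and Rpl23 by 0.80 (SE 0.18). Rplp0 rose by 1.26 (SE 0.24) and Rpsa by 1.79 (SE 0.24). Medians were 1.41 for the 46 large subunit core genes and 1.44 for the 31 small subunit core genes.

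Paralogs had the widest range against MEF, and all 7 were called. Rpl10l had 0 reads in MEF and was at least 462.8-fold higher in iPSC and at least 136.9-fold higher in ESC, against a floor of 3 reads in the MEF library (0.107 CPM, reads scaled to library size). Rpl39l rose by 4.05 (SE 0.32, edgeR adjusted p = 6.56e-05) and Rps4l by 2.82 (SE 0.19). Rpl3l, with 4 reads in MEF, rose by 3.51 (SE 0.75), and by 2.65 with limma on log2(RPKM + 0.1) and 0.99 with log2(RPKM + 1), where it also passed. In MEF, Rps4l stood at 5.78% of the RPKM of Rps4x. Rps27l rose by 1.70 (SE 0.17), Rpl7l1 by 1.18 (SE 0.19) and Rpl22l1 by 0.77 (SE 0.19). Their parents Rpl7 and Rpl22 rose by 1.13 (SE 0.21) and 1.08 (SE 0.16).

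**Figure D4:**
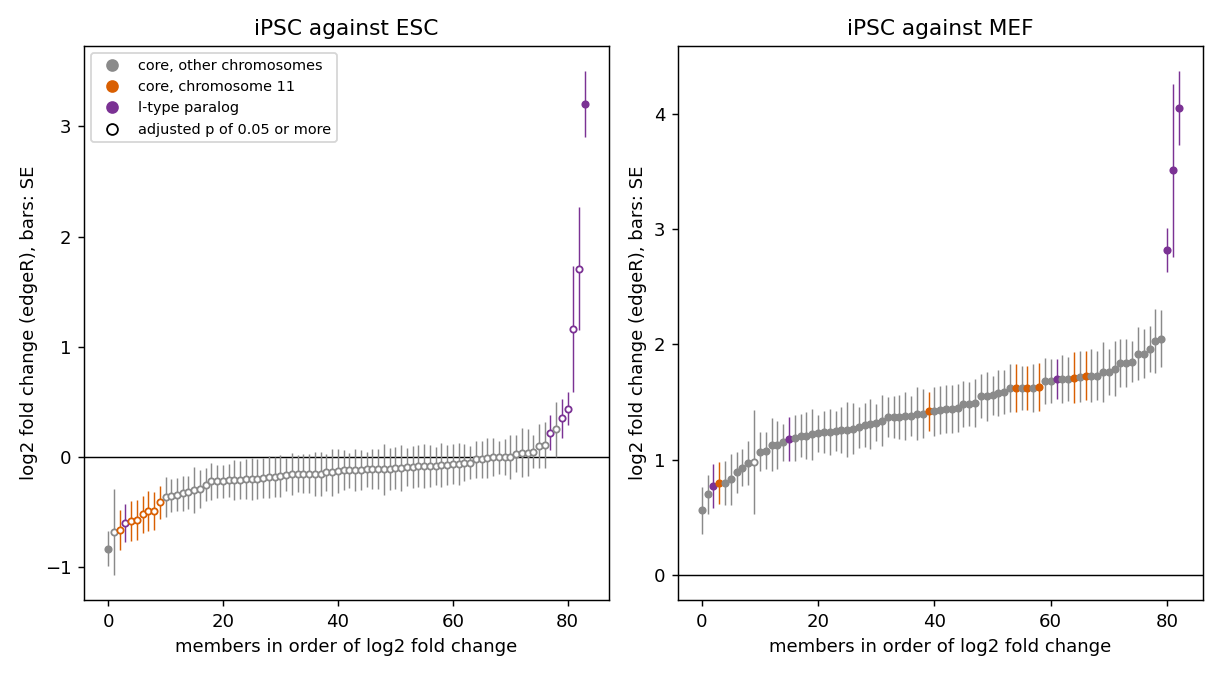
EdgeR log2 fold changes of members in order of size, against ESC (left) and against MEF (right), with bars for the SE, filled points for an adjusted p under 0.05, chromosome 11 core genes in orange, paralogs in purple and other core genes in grey. Against ESC most points lie just below 0 and Rpl39l stands at 3.20, while against MEF all drawn points lie above 0, and Rpl10l, with no MEF reads, is left out there.

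The ESC and MEF libraries were set side by side without a test, being 1 library each. At least 2-fold higher in ESC were 77 of 84 members, where 32.9% of all genes were, and the median log2 difference was 1.57 for members and 0.17 for all genes. All 84 were higher in ESC than in MEF, as were 8795 of all 16435 genes. Rpl30 stood at 575.3 RPKM in ESC and 120.9 RPKM in MEF, and Rpl39l at 5.69 RPKM in ESC and 3.28 RPKM in MEF.

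Genes that work with the ribosomal proteins were also mostly higher in iPSC than in MEF. Against MEF, edgeR called 36.5% of all genes higher and 31.6% lower, and against ESC 4.71% higher and 5.71% lower, and the counts of these lists stand beside those shares. Of 43 genes of ribosome assembly and the nucleolus, 41 were higher in iPSC than in MEF and 0 lower, with a median log2 fold change of 1.65. Dkc1, the pseudouridine synthase of box H/ACA particles, rose by 3.01 (SE 0.30), Rrp9 by 2.88 (SE 0.17), Nhp2 by 2.64 (SE 0.23) and Nop56, of box C/D particles, by 2.50 (SE 0.24). Against ESC 1 of the 43 was called, the kinase Riok2 of 40S maturation (0.66, SE 0.15, adjusted p = 0.0429), and the median was 0.36, the opposite sign to that of the members. Of 14 genes of RNA polymerase I, which transcribes ribosomal RNA, 13 were higher in iPSC than in MEF, led by Polr1c (2.01, SE 0.18), and 1 was higher than in ESC, Polr1e (0.86, SE 0.19, adjusted p = 0.0386). Outside the symbol rule, Fau, made as a fusion with a small subunit protein, was higher in iPSC than in MEF by 1.02 (SE 0.17), and Gnb2l1, a scaffold protein of the small subunit, by 1.73 (SE 0.19).

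Translation factors and regulators were more mixed. Of 33 translation factors 25 were higher in iPSC than in MEF, with a median of 1.00, led by the initiation factor Eif2s2 (3.41, SE 0.20), and 0 were called against ESC. Of 14 mTOR and Larp1 genes 4 were higher and 3 lower than in MEF, shares no larger than those of all genes. The translation repressor Eif4ebp1 rose by 3.08 (SE 0.18) and the kinase Akt1 fell by 2.18 (log2 -2.18, SE 0.18). Against ESC the mTOR inhibitor Tsc1 was lower (-0.81, SE 0.13, adjusted p = 0.0202). Of 16 p53 and Mdm2 genes 8 were higher and 3 lower than in MEF, and against ESC Mdm4 (-0.74, SE 0.15) and Sesn2 (-0.67, SE 0.15) were lower. In a list of 6 Myc family genes, which holds both activators of growth genes and their antagonists, 2 were higher and 4 lower than in MEF, and 2 were higher and 2 lower than in ESC. Myc stood at 24.2 and 57.4 RPKM in the PC lines, 33.1 and 37.2 RPKM in the control lines, 2.82 RPKM in ESC and 153.9 RPKM in MEF, and Mycn at 18.7 and 6.37 RPKM in the PC lines, 8.79 and 8.82 RPKM in the control lines, 33.5 RPKM in ESC and 1.00 RPKM in MEF. Myc was thus higher in iPSC than in ESC (3.71, SE 0.56, adjusted p = 0.0173) and lower than in MEF, and Mycn the reverse (-1.72 against ESC, SE 0.42, adjusted p = 0.0491). Also called against ESC were Mycl (1.60, SE 0.31, adjusted p = 0.0286) and the antagonist Mnt (-1.05, SE 0.17, adjusted p = 0.0212). No gene of these lists was called between PC and control iPSC, by edgeR. The fibroblast list, whose genes feeder cells also express, had 5 of 8 genes higher in iPSC than in ESC.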

How the data were processed

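RNA of 6 mouse libraries was sequenced from mRNA kits, per the labels' protocols. The deposited table holds uniquely assigned read counts per gene and RPKM by the authors, per the file headers. The submitters' processing notes name CASAVA 1.8.2 and mm10 without a role. The sources used here do not give the aligner, counter, annotation or strand setting, and without strand overlapping antisense genes cannot be told apart. RPKM recomputed from count, length and total for all 84 members (17 to 28 other genes per library differed). Deposited coverage values (unit not clear) were not used.

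Counts were tested with edgeR 4.0.16 (R 4.3.3), quasi-likelihood, TMM scaling, default expression filter (16435 genes), 4 group means over 6 libraries (2 residual and 4.75 prior degrees of freedom), Benjamini-Hochberg threshold 0.05. The iPSC effect is the mean of the PC and control means against ESC or MEF. DESeq2 1.42.0 and limma 3.58.1 gave alternatives. The fitting code was tested on simulated data. Positions (19239 genes placed by gene ID) and windows are RefSeq GRCm38.p6, and shared stretches of 50 bases come from GENCODE M21 transcripts.

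Named genes were Rplp0, Rpsa, each paralog with its parent, members called for PC or ESC, the 5 highest and 5 lowest changes per comparison, the 3 most and least abundant core genes, the chromosome 11 members and up to 4 genes per list. Members and lists were chosen with earlier results of these data known. Same-numbered samples do not occur across the iPSC groups.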

Additional observations from a re-analysis of the deposited data

Results flagged for a closer look

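In 5 results 1 of the 4 iPSC lines lay far from the others, by the gap to its nearest neighbour as a part of the whole range, past Dixon's 95% critical value. The line was PC iPSC 5 each time. The gap was 0.83 for the share of reads held by the 7 core genes of chromosome 11, which was 0.832% in PC iPSC 5 and 0.645% to 0.677% in the other three lines. It was 0.91 for Rpl19, 0.88 for Rpl26 and 0.844 for Rps27a, all highest in PC iPSC 5 and all on chromosome 11. It was 0.974 for Rplp0 on chromosome 5, lowest in PC iPSC 5 at 2600 RPKM. The bound was applied to 8 sets and 25 named members, and over all 84 members 9 passed it. Chance flags about 1 in 20 independent groups. The counts here cannot be set against that rate, since members share libraries. Named members were also chosen partly by their changes in these data.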

How the results depend on the processing

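No member was called between PC and control iPSC under any of 13 alternatives, and against MEF 82 to 83 of 84 were called, or 76 of the 77 left without chromosome 11 genes. The count against ESC was 6 with DESeq2 and 1 with limma on log2(RPKM + 1), and ran from 3 to 10 when 1 iPSC line was left out. In the same leave-outs the median of members between PC and control iPSC ran from -0.25 to 0.03, and the difference in read share from -0.985 to 0.259 percentage points. The cause of these shifts beyond the left-out line was not tested. Medians against ESC ran from -0.21 to -0.07 and against MEF from 1.35 to 1.49. The chromosome 11 median in PC iPSC 5 was 0.25 to 0.31. Among named members, 343 results under an alternative kept direction and side of the threshold, 11 newly passed it, 5 no longer passed it (Rpl30 with limma, Rpl10 under 4 settings) and 5 without a call changed sign between PC and control iPSC, namely Rps27a (-0.05) and Rpl26 (-0.01) without PC iPSC 5, Rpl10l (-0.64) and Rps27 (-0.22) without PC iPSC 13, and Rps27 (-0.11) without control iPSC 3. Scaling to genes outside the set and leaving out lines for the read share and chromosome 11 values were chosen after seeing the data. No paired analysis was possible because the PC lines (5, 13) and control lines (3, 7) share no replicate number. Precision is limited by 2 lines per group and single ESC and MEF libraries, and for Rpl3l and Rps27 also by low counts.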
